A study of Danio rerio with 4 samples.

Results

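The comparison of embryos at 4 hours post fertilisation (hpf) with embryos at 2 hpf was made in 1 kb windows of the zebrafish genome. A window was scored if at least 6 of its CpGs were covered and its CpGs held at least 40 reads in both libraries. Of the 1354664 windows with a listed CpG on the 25 nuclear chromosomes, 1152318 (85.1%) were scored. Of these, 1743 were at least 25 percentage points lower at 4 hpf and 630 were at least 25 points higher. These 2373 windows are described here.

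The study made 4 whole-genome bisulfite methylomes of whole embryos, 1 library per stage. The 2 hpf embryos were at the 64-cell stage, those of 4 hpf at dome stage and those of 8 hpf in epiboly. The last sample was taken at 24 hpf. The embryos came from timed collections. No genotype, strain or treatment is given for any stage, and how many embryos entered a library is not given in the sources used here. The depth was uneven, with a mean coverage per CpG of 28.6 (2 hpf), 20.9 (4 hpf), 8.04 (8 hpf) and 12.3 (24 hpf). With 1 library per stage there was no replicate and no test between stages could be made, and stage and library cannot be told apart. Intervals are Wilson 95% intervals that cover counting error only. A read that crosses several CpGs of a window counts at each of them, so a window of 40 reads can rest on far fewer DNA fragments and the intervals on its level are too narrow.

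In vertebrates most CpGs carry a methylated cytosine, while CpG-rich promoters lie in stretches without methylation, called hypomethylated regions. In mammals many active enhancers do so too. The study reports another pattern for early zebrafish embryos, where active enhancers were generally highly methylated and hypomethylated enhancers were mostly inactive. Bisulfite treatment converts unmethylated cytosine to uracil, so each read reports whether each CpG it crosses was converted. The early cleavages of the zebrafish embryo run on maternal RNA and protein, and the embryo's own genome starts to be transcribed broadly at the midblastula transition, which lies between the 2 hpf and the 4 hpf samples. The study measured a low level of hydroxymethylcytosine before that transition, and little above background after it. The bisulfite reads used here do not tell this form from methylcytosine. Embryos were sampled whole. An intermediate level therefore cannot tell a share of the cells from a share of the alleles or from neighbouring CpGs of unlike state.

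Methylation was nearly alike at both stages over most of the genome. The mean window level was 87.1% at 4 hpf and 87.3% at 2 hpf. The median difference was -0.00252 points (4 minus 2 hpf). The level moved by less than 5 points in 85.6% of windows, by less than 10 points in 96.5% and by less than 25 points in 99.8%. The lower windows were 0.151% and the higher windows 0.0547% of all windows scored, which makes 2.77 lower windows for each higher one. The same count at 8 hpf against 2 hpf gave 0.146% lower and 0.119% higher of 1138385 windows with at least 20 reads at 8 hpf. At 24 hpf against 2 hpf it gave 0.287% lower and 0.229% higher of 1146867 windows. The share of lower windows at 4 hpf was thus close to that at 8 hpf, and the share of higher windows was the smallest of the 3 stages. All 3 counts share the 2 hpf library, and the later libraries held fewer reads.

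**Figure D1:**
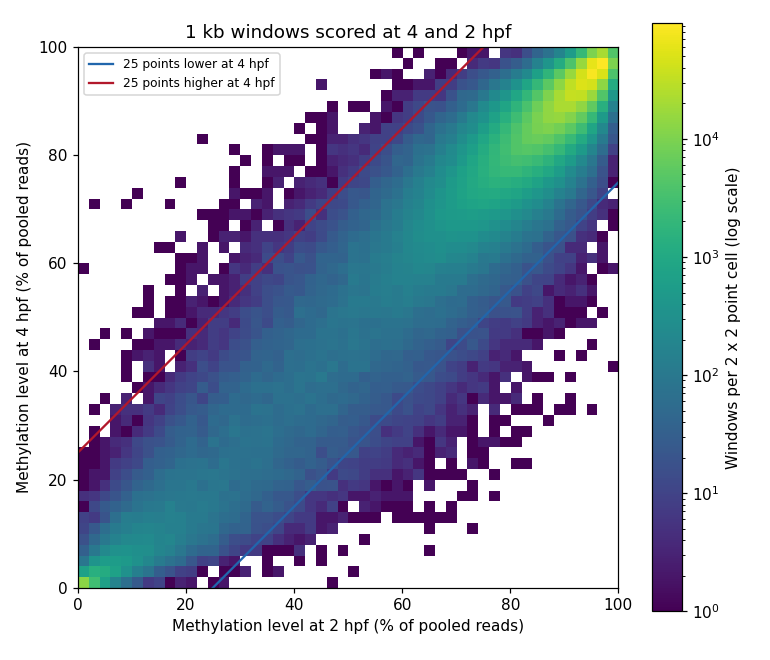
Methylation level of each window at 4 hpf (y axis, % of pooled reads) against 2 hpf (x axis, % of pooled reads), with the number of windows per 2 by 2 point cell as colour on a log scale. The 1743 lower windows lie below the blue line and the 630 higher windows above the red line, and both edges are thinly filled beside the dense diagonal.

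In the plot of window levels at 4 and 2 hpf the changed windows span the whole range. Of the 1743 lower windows 667 were between 25% and 75% at both stages, and of the 630 higher windows 245. The lower windows had a median level of 37.1% at 4 hpf (quartiles 24.6% and 50%) and of 68.9% at 2 hpf (quartiles 56.3% and 80.5%). Of the 1743, 444 were under 25% at 4 hpf and 637 were over 75% at 2 hpf. Only 5 windows were both, that is, crossed from a highly methylated to a hypomethylated state in this sense. The higher windows had a median of 71.8% at 4 hpf (quartiles 61.6% and 82.5%) and of 41.1% at 2 hpf (quartiles 29.8% and 52.8%). Of the 630, 271 were over 75% at 4 hpf and 116 were under 25% at 2 hpf, with 2 windows in both sets. Hypomethylated windows as a group were stable. Under 25% there were 37716 windows at 4 hpf and 35180 at 2 hpf, and 33966 were under 25% at both. At the threshold itself, 284 windows lay between 25 and 26 points lower and 319 between 24 and 25 points lower. For higher windows these counts were 110 and 132.

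The changed windows held fewer reads than the rest of the genome. Lower windows had a median of 208 reads at 4 hpf and 227 at 2 hpf, and higher windows 161 at 4 hpf and 148 at 2 hpf. All scored windows had a median of 336 reads at 4 hpf and 491 at 2 hpf. The share of windows that were lower was 0.534% (interval 0.490% to 0.582%) where the less covered library held 40 to 99 reads, 0.183% with 100 to under 200 reads, 0.127% with 200 to under 400 reads and 0.0737% (0.0663% to 0.0819%) with 400 reads or more. The share that were higher was 0.274% with 40 to 99 reads and 0.0135% with 400 or more. Of the changed windows, 344 lower and 63 higher ones had at least 400 reads in both libraries. The CpGs of changed windows were also more thinly covered, with a median of 14.0 reads per covered CpG at 4 hpf and 17.3 at 2 hpf in lower windows, against 22.0 at 4 hpf and 33.3 at 2 hpf in all windows. A two-sided Fisher exact test on the pooled reads of each window, with Benjamini-Hochberg adjustment over all scored windows at 0.05, kept 1716 of the 1743 lower and 609 of the 630 higher windows. That test compares the reads of 2 libraries, not the stages. It used the same reads that chose the windows and counts a read at each CpG it crosses. The number kept is therefore no added support for the changes.

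CpG density was somewhat above that of the genome. Lower windows held a median of 19 CpGs (quartiles 13 and 28) and higher windows 18 (quartiles 12 and 25), against 16 (quartiles 11 and 24) in all windows scored. The share of windows that were lower was 0.122% with 6 to 9 CpGs, 0.125% with 10 to 19, 0.167% with 20 to 29, 0.263% with 30 to 39 and 0.220% with 40 or more. The intervals of the 2 sparsest classes (0.108% to 0.139% and 0.116% to 0.135%) did not overlap those of the 2 densest (0.233% to 0.297% and 0.187% to 0.260%). Over the same classes the share that were higher went between 0.0458% and 0.0718%, with overlapping intervals. Where both libraries held at least 400 reads, lower, higher and all scored windows had the same median of 23 CpGs. Among those windows the lower share was 0.0679% (0.0556% to 0.0829%) with 6 to 19 CpGs, 0.0780% (0.0667% to 0.0912%) with 20 to 29 and 0.0734% (0.0598% to 0.0899%) with 30 or more. For windows called by pooled reads, a relation of the lower share to CpG density was therefore not detectable among windows with at least 400 reads. Reads are summed over the CpGs of a window, so dense windows reach 400 with fewer reads per CpG. Depth per CpG was not held equal across these classes. The higher share there was 0.0113% (0.00696% to 0.0184%) with 6 to 19 CpGs, 0.0200% (0.0147% to 0.0272%) with 20 to 29 and 0.00558% (0.00270% to 0.0115%) with 30 or more, so that it was lower in the densest class than in the middle one.

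**Figure D2:**
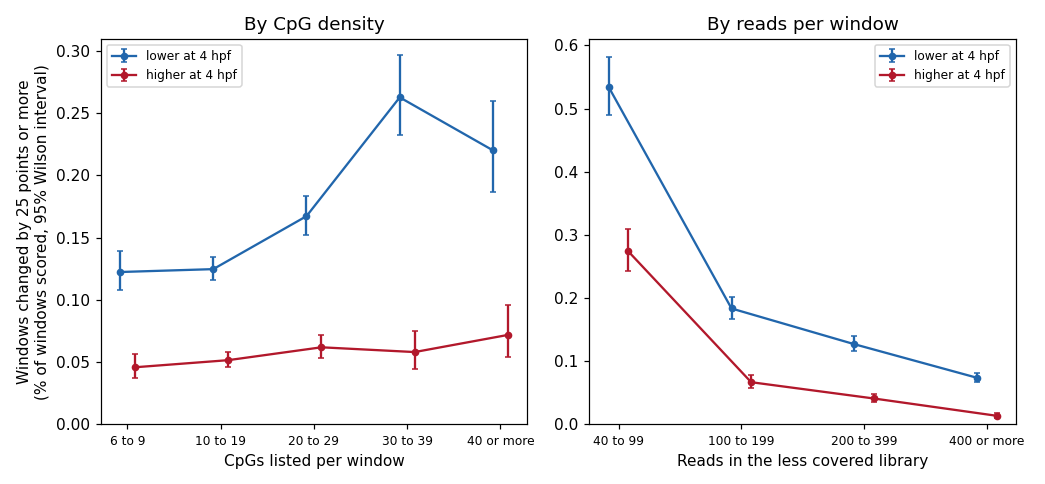
Share of scored windows that were lower or higher by at least 25 points at 4 hpf (y axes, %, with Wilson 95% intervals), by CpGs per window (left) and by reads in the less covered library (right). The lower share is largest at 30 to 39 CpGs (0.263%), and both shares are smallest at 400 reads or more (0.0737% lower and 0.0135% higher).

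The plot of shares by CpG density and by reads puts both relations side by side. The fall with reads spanned a wider range than the rise with CpGs, for the lower and for the higher windows.

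Changed windows were found on every chromosome, and lower windows outnumbered higher windows on all 25. The lower share went from 0.111% on chromosome 1 to 0.212% on chromosome 22. The higher share lay between 0.0298% and 0.0771% on all chromosomes but chromosome 4, where it was 0.189%. Chromosome 4 held 83 of the 630 higher windows. Its distal part is known in zebrafish as a long arm rich in repeats. Beyond 30 Mb the share of higher windows was 0.379% (69 of 18189), against 0.0680% (12 of 17646) in the first 20 Mb. The lower share there was 0.302% (55 windows) beyond 30 Mb and 0.108% (19 windows) in the first 20 Mb. The megabase that starts at 56 Mb held 13 higher windows, the most of any. Windows beyond 30 Mb had a median of 202 reads in the less covered library, against 326 over all windows, and the part of read number in this excess was not tested. Without chromosome 4 there were 1656 lower and 547 higher windows (0.0493% higher). The outer 500 kb of the chromosomes held 58 lower windows (0.262% of 22140 scored there) and 26 higher windows (0.117%).

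**Figure D3:**
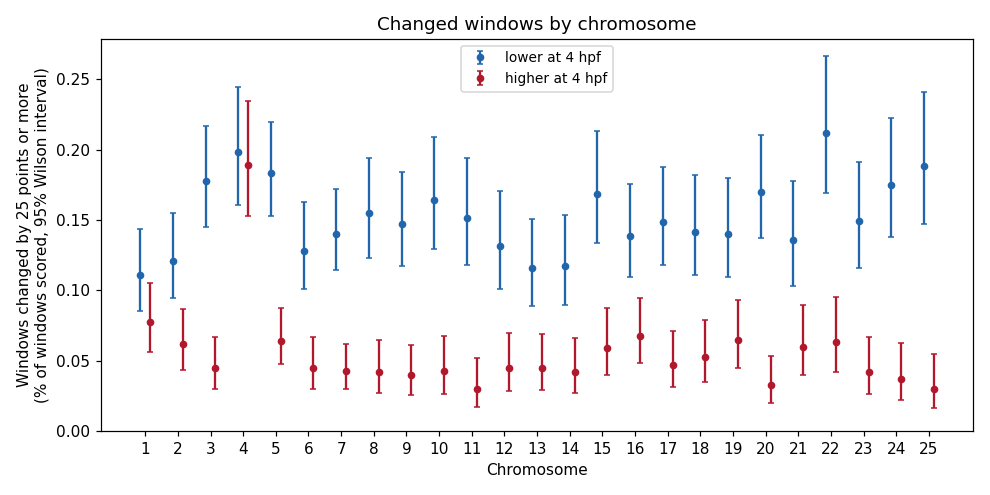
Share of scored windows that were lower or higher by at least 25 points at 4 hpf (y axis, %, with Wilson 95% intervals) on each of the 25 chromosomes (x axis). The higher share on chromosome 4 (0.189%) is above those of all other chromosomes, which lie at or under 0.0771%.

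The plot by chromosome shows overlapping intervals for most neighbouring values. The interval of the higher share on chromosome 4 overlapped that of no other chromosome.

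Changed windows were mostly single. Of the lower windows, 79 of 1743 (4.53%, interval 3.65% to 5.61%) had an adjacent lower window, against 0.238% of all scored windows. Of the higher windows, 10 of 630 (1.59%, interval 0.864% to 2.90%) had an adjacent higher window, against 0.0808% of all scored windows. Adjacent windows share reads across their border and are not independent. When windows with starts within 2 kb were joined, 1643 of 1692 lower clusters and 610 of 620 higher clusters held 1 window. The largest cluster held 3 windows among the lower and 2 among the higher ones. Successive lower windows lay a median of 459.5 kb apart. Only 370 of the 2749 windows beside a lower window (13.5%) had moved by at least 10 points the same way, against 2.18% of all windows. For the higher windows this was 71 of 934 (7.60%), against 1.29% of all windows.

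The most extended changes can be followed at all stages. The longest lower cluster with most reads, at Zv9 chr5:29059001-29062000, had 48 CpGs in its 3 windows and pooled levels of 58.6% (2 hpf), 28.3% (4 hpf), 56.3% (8 hpf) and 46.5% (24 hpf). The other lower cluster of 3 windows, at chr17:46562001-46566000, with 57 CpGs, had 73.2% (2 hpf), 41.6% (4 hpf), 84.8% (8 hpf) and 69.5% (24 hpf). Next by reads came chr7:43103001-43105000, with 70 CpGs and 66.9% (2 hpf), 33.8% (4 hpf), 45.3% (8 hpf) and 73.3% (24 hpf). In all 3 the 4 hpf level was the lowest of the stages. The longest higher clusters had 2 windows each. At chr16:363001-365000 the level was 17.6% (2 hpf), 49.6% (4 hpf), 6.62% (8 hpf) and 15.4% (24 hpf). At chr8:52511001-52513000 it was 39.8% (2 hpf), 66.2% (4 hpf), 41.8% (8 hpf) and 3.75% (24 hpf). At chr15:3619001-3622000 it was 36.9% (2 hpf), 71.3% (4 hpf), 32.1% (8 hpf) and 49.3% (24 hpf). Here the 4 hpf level was the highest of the stages in each. No Zv9 gene annotation was used, so no window is placed relative to a gene.

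Many changed windows lay at or near the border of a hypomethylated stretch. An adjacent window was under 25% at 4 hpf for 27.4% of the lower windows and at 2 hpf for 23.5%. For the higher windows these shares were 25.9% at 4 hpf and 25.4% at 2 hpf, and over all scored windows 5.22% at 4 hpf and 4.88% at 2 hpf. The share called lower also went with the level at 2 hpf. It was 1.78% for windows at 50% to 75% and 0.0196% for those at 90% or more. The share called higher was largest, 2.28%, at 25% to 50%. That level is a term of the difference, and no window under 25% at 2 hpf could be called lower. These shares follow in part from the rule and are a description only. Neither the comparison of adjacent windows nor that of mixed CpGs below was made among windows of like level. At least 3 CpGs under 25% and at least 3 CpGs at 75% or more, by the reads of both libraries together, stood side by side in 37.2% of the lower windows (648) and 32.2% of the higher windows (203). Among unchanged windows 3.59% were mixed in this way.

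In such windows the pooled level depends on where the reads fall, and the 2 libraries covered the CpGs of changed windows unevenly. In the lower windows, CpGs under 25% took 42.1% of the reads at 4 hpf and 21.4% of the reads at 2 hpf. CpGs at 75% or more took 22.4% of the reads at 4 hpf and 46.0% at 2 hpf. In the higher windows the shares were the other way round, with 20.9% at 4 hpf and 44.5% at 2 hpf for CpGs under 25%, and 50.4% at 4 hpf and 28.4% at 2 hpf for CpGs at 75% or more. In all other windows the CpGs under 25% took 6.38% of the reads at 4 hpf and 5.51% at 2 hpf. The number of reads at 4 hpf over that at 2 hpf was 1.77 at the CpGs under 25% and 0.437 at those at 75% or more in lower windows, 0.412 and 1.56 in higher windows, and 0.847 and 0.724 elsewhere. The windows were chosen on the pooled level of the same 2 libraries, and the CpGs were classed by the same reads. The opposite shares in lower and higher windows follow in part from that choice and are a description only.

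The difference was therefore also read CpG by CpG, as the mean difference of the fractions of those CpGs that had at least 5 reads in both libraries, each CpG with the same weight. This needed at least 6 such CpGs in a window, and 1304 of the 1743 lower windows (74.8%) and 415 of the 630 higher windows (65.9%) had them. Their median pooled difference was -29.0 points and their median same-CpG difference -9.70 points (quartiles -23.4 and -1.88) in the lower windows. In the higher windows it was 28.5 points pooled and 7.95 points at the same CpGs (quartiles 1.54 and 25.2). A same-CpG difference of at least 25 points was left in 273 of the 1304 lower windows (20.9%, interval 18.8% to 23.2%) and in 107 of the 415 higher windows (25.8%, interval 21.8% to 30.2%). It was under 10 points in 658 lower windows (50.5%) and 221 higher windows (53.3%). The sign stayed the same in 1132 of the 1304 lower and 354 of the 415 higher windows. The reads of these CpGs also entered the choice of the windows. The agreement in sign follows in part from that choice and is a description only.

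**Figure D4:**
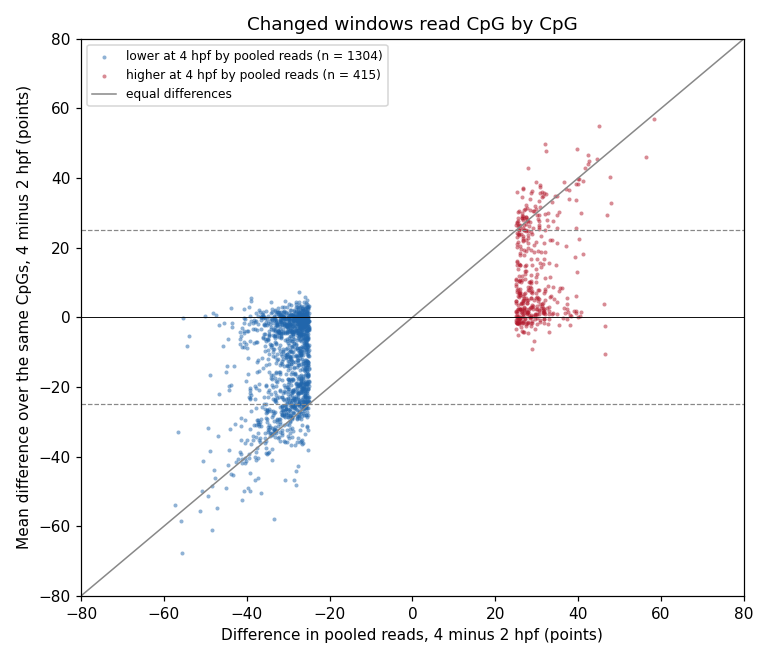
Mean difference over the same CpGs (y axis, points, 4 minus 2 hpf) against the difference in pooled reads (x axis, points, 4 minus 2 hpf) for 1304 lower and 415 higher windows, with the line of equal differences and dashed lines at 25 points. Each point is a window, and most lie between the line of equal differences and 0, with a dense band near 0.

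The plot of pooled against same-CpG differences shows both kinds of window in each direction, those on the diagonal and those near 0. The pooled difference over these CpGs splits exactly into a part from the change of the CpGs and a part from the change of their weights. In the lower windows the median part from the CpGs was -9.52 points and the median part from the weights -15.7 points. In the higher windows these were 8.07 and 16.6 points. The part from the weights was the larger in 723 of the 1304 lower windows (55.4%) and in 234 of the 415 higher windows (56.4%). Of the 19818 single CpGs with at least 5 reads in both libraries in lower windows, 27.2% were at least 25 points lower at 4 hpf and 0.706% at least 25 points higher. In the higher windows 26.3% of 5750 CpGs were at least 25 points higher and 0.957% at least 25 points lower. The reads of these CpGs entered the choice of the windows, so the uneven shares are a description only. The same shares over all scored windows are not given here.

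The windows with the largest differences were among those with few reads. The 5 largest lower differences went from -62.3 to -58.9 points. At chr12:41606001-41607000 the level was 10.9% of 147 reads at 4 hpf (interval 6.81% to 16.9%) and 73.2% of 41 reads at 2 hpf (58.1% to 84.3%). Its 3 CpGs with at least 5 reads in both libraries differed by a mean of only -4.29 points. At chr17:37363001-37364000 the level was 16.9% of 201 reads at 4 hpf and 76.4% of 157 reads at 2 hpf, while 3 such CpGs differed by 3.16 points. In both windows the pooled difference was not seen at these few CpGs, and the other CpGs had under 5 reads in at least 1 of the libraries. At chr7:278001-279000 the level was 41.1% of 56 reads at 4 hpf and 100% of 44 reads at 2 hpf, and 4 such CpGs differed by -69.9 points. At chr21:11722001-11723000 the level was 22.9% of 140 reads at 4 hpf and 82.1% of 106 reads at 2 hpf, with -21.6 points over 2 CpGs. At chr4:30334001-30335000 it was 32.6% of 46 reads at 4 hpf and 94.8% of 58 reads at 2 hpf, with no CpG of 5 reads in both. None of the 5 had the 6 CpGs needed for a same-CpG value of the window.

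The 5 largest higher differences went from 58.3 to 68.1 points, and their windows had at most 177 reads at 4 hpf. At chr4:43634001-43635000 the level was 70.6% of 177 reads at 4 hpf and 2.56% of 78 reads at 2 hpf, and the window had no read at 8 or 24 hpf. Its 3 CpGs with at least 5 reads in both libraries differed by 75.9 points. At chr4:42763001-42764000 the level was 73.9% of 161 reads at 4 hpf and 10% of 70 reads at 2 hpf, but 16 of its 17 CpGs were covered at 4 hpf, against 6 at 2 hpf, and 2 CpGs with at least 5 reads in both differed by -2.63 points. That value rests on those 2 CpGs alone. At chr22:39890001-39891000 the level was 70.0% of 40 reads at 4 hpf and 8.33% of 48 reads at 2 hpf, and at chr5:54019001-54020000 it was 82.1% of 56 reads at 4 hpf and 23.8% of 42 reads at 2 hpf. At chr1:9048001-9049000 the level was 58.3% of 115 reads at 4 hpf and 0% of 62 reads at 2 hpf, which allows up to 5.83%. Its 6 CpGs with at least 5 reads in both libraries differed by 57.0 points, the largest same-CpG difference among higher windows with at least 6 such CpGs.

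Read CpG by CpG over all windows, 389 of 1106009 (0.0352%) were at least 25 points lower at 4 hpf and 205 (0.0185%) at least 25 points higher. Of these, 273 lower windows (70.2%) and 107 higher windows (52.2%) were also changed by pooled reads. Since these windows were chosen on the mean over the same CpGs, what their CpGs did is a description only. In the median lower window 90.9% of the CpGs used were lower at 4 hpf and 66.7% were lower by at least 25 points. In the median higher window 88.9% were higher and 60.0% were higher by at least 25 points. CpGs under 25% were mixed with CpGs at 75% or more in 5.66% of these lower and 6.83% of these higher windows. Among windows unchanged by pooled reads it was 3.59%. The CpGs were classed by both libraries together, so a CpG that moved far tends to fall between the classes. The median number of listed CpGs was 26 in these lower and 21 in these higher windows. The median number of CpGs used was only 11 in the lower and 9 in the higher ones. The listed numbers were above those of windows called by pooled reads, but this reading also needs CpGs covered well enough in both libraries. That rule can favour CpG-rich windows, so the comparison does not show a trait of the changed windows. The median over all windows read CpG by CpG is not given here. The lower ones were spread over all 25 chromosomes with at most 25 on any, and 14 of the 389 had an adjacent window of the same kind. The higher ones were also on all 25, with 30 on chromosome 4, of which 27 lay beyond 30 Mb (0.187% of 14414 windows there, against 0.0163% elsewhere). The lower share there was 0.132%, against 0.0339% elsewhere. These windows too were thinly covered, with a median of 12.3 reads per CpG in the less covered library for the lower and 11.4 for the higher ones. With 20 or more reads per CpG in both libraries, 80 lower (0.0116%) and 27 higher windows (0.00390%) of 692114 were left. With under 10 reads per CpG the shares were 0.427% lower and 0.273% higher of 29711.

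The 5 best covered lower windows by reads per CpG were chosen after their values were seen. Their levels at 8 and 24 hpf, and those of the higher windows below, are over CpGs of at least 5 reads at that stage and at 2 hpf. These can differ from the CpGs used for the 2 and 4 hpf levels. At chr7:31195001-31196000, with 21 CpGs, the mean CpG level was 70.1% (2 hpf), 40.6% (4 hpf), 77.5% (8 hpf) and 59.3% (24 hpf). At chr5:43941001-43942000 all 48 CpGs could be compared and the mean CpG level was 73.2% (2 hpf), 45.9% (4 hpf), 76.8% (8 hpf) and 81.8% (24 hpf). The window held 2487 reads (2 hpf), 2060 (4 hpf), 877 (8 hpf) and 1159 (24 hpf). At chr14:48721001-48722000, with 32 CpGs, the level was 80.4% (2 hpf), 52.1% (4 hpf), 80.9% (8 hpf) and 71.5% (24 hpf). At chr5:21657001-21658000, with 21 CpGs, it was 51.3% (2 hpf), 19% (4 hpf), 51.1% (8 hpf) and 58.7% (24 hpf). At chr23:36293001-36294000, with 21 CpGs used, it was 83.6% (2 hpf), 52.0% (4 hpf), 88.4% (8 hpf) and 59.1% (24 hpf). The level at 8 hpf was nearer to 2 hpf in all 5, and that at 24 hpf in all but the window on chromosome 23, where it was nearer to 4 hpf. Among the 5 best covered higher windows, chr1:2397001-2398000, with 25 CpGs used, had 25.7% (2 hpf), 52.2% (4 hpf), 13.3% (8 hpf) and 12.3% (24 hpf). At chr21:8703001-8704000, with 8 CpGs, it was 34.0% (2 hpf), 64.1% (4 hpf), 38.5% (8 hpf) and 28.2% (24 hpf). At chr7:54498001-54499000, with 9 CpGs, it was 34.0% (2 hpf), 63.2% (4 hpf), 41.4% (8 hpf) and 38.7% (24 hpf). At chr3:8371001-8372000, with 23 CpGs used, it was 52.3% (2 hpf), 79.02% (4 hpf), 46.1% (8 hpf) and 62.0% (24 hpf), and at chr13:33131001-33132000, with 17 CpGs, 32.8% (2 hpf), 61.6% (4 hpf), 16.0% (8 hpf) and 46.1% (24 hpf). Both later levels were nearer to 2 hpf in all 5.

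The later stages did not enter the choice of windows, and by pooled reads most windows did not keep the 4 hpf level. The 2 and 4 hpf libraries did enter it. A later level away from that of either stage can follow in part from that choice, so the values are a description only. This holds too for windows called CpG by CpG and for the windows and clusters named by position. Over the 1565 lower windows with at least 20 reads at both later stages, the median pooled level was 68.3% (2 hpf), 36.6% (4 hpf), 66.7% (8 hpf) and 67.6% (24 hpf). The level at 8 hpf was nearer to that at 4 hpf than to that at 2 hpf in 273 of 1589 lower windows (17.2%, interval 15.4% to 19.1%), and the level at 24 hpf in 264 of 1676 (15.8%, interval 14.1% to 17.6%). Among unchanged windows the level was nearer to 4 hpf in 43.2% at 8 hpf and in 44.8% at 24 hpf. Unchanged windows differed by under 25 points between 2 and 4 hpf, so their shares are not a like baseline. Only 89 of the 1565 windows (5.69%) were nearer to 4 hpf at both later stages, and 30 (1.92%) were still at least 25 points below 2 hpf at both.

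Over 491 higher windows the median pooled level was 39.8% (2 hpf), 70.3% (4 hpf), 44.6% (8 hpf) and 50% (24 hpf). The level was nearer to 4 hpf in 127 of 498 windows (25.5%, interval 21.9% to 29.5%) at 8 hpf and in 207 of 578 (35.8%, interval 32.0% to 39.8%) at 24 hpf. At both later stages 78 of the 491 (15.9%) were nearer to 4 hpf, and 31 (6.31%) were still at least 25 points above 2 hpf. By pooled reads the intervals of the lower and the higher windows did not overlap at either stage when all windows were taken. Within each class of read number they overlapped at 8 hpf, though barely with 200 to under 400 reads. At 24 hpf they overlapped in no class. No test was made of the difference, since all windows share the same 4 libraries. With the mean of CpG fractions in place of pooled reads, 55.1% of the higher windows were nearer to 4 hpf at 8 hpf. That setting averages each library over its own CpGs of at least 5 reads.

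**Figure D5:**
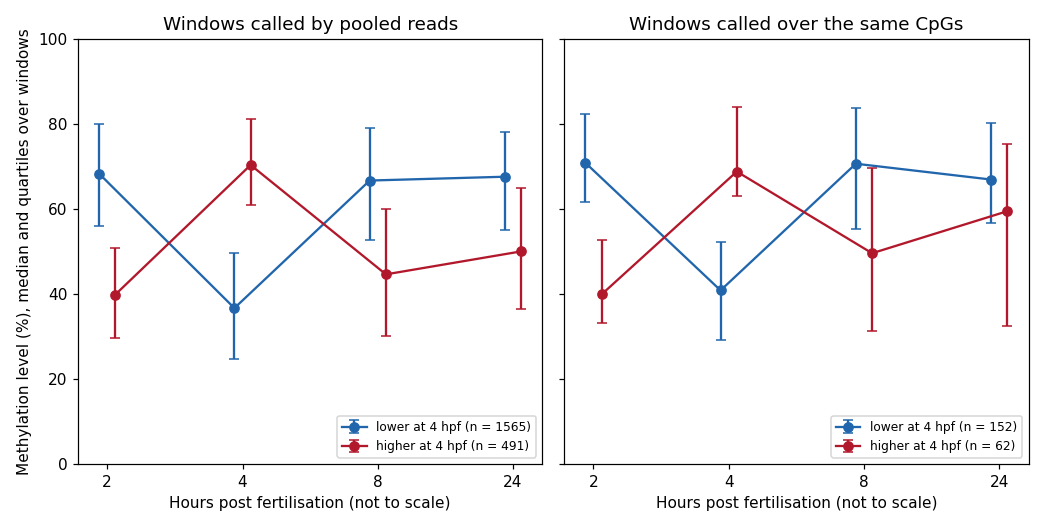
Methylation level (y axes, %, median and quartiles over windows) at 2, 4, 8 and 24 hpf (x axes, not to scale) for windows that were lower or higher at 4 hpf by pooled reads (left, 1565 and 491 windows) and over the same CpGs (right, 152 and 62 windows). In both panels the 8 hpf medians lie nearer to 2 hpf than to 4 hpf. At 24 hpf the higher windows of the right panel lie nearer to 4 hpf (59.5%). In that panel the 8 and 24 hpf levels rest on partly other CpGs than the 2 and 4 hpf levels.

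The plot of levels by stage also shows windows chosen and read CpG by CpG. The median mean-of-CpG level of 152 such lower windows was 70.9% (2 hpf), 40.8% (4 hpf), 70.6% (8 hpf) and 66.9% (24 hpf). For 62 higher windows it was 39.9% (2 hpf), 68.8% (4 hpf), 49.6% (8 hpf) and 59.5% (24 hpf). The levels at 2 and 4 hpf are over CpGs of at least 5 reads in both of these libraries. Those at 8 and 24 hpf are over CpGs of at least 5 reads at that stage and at 2 hpf. The 4 medians therefore do not rest on the same CpGs. In this reading the 24 hpf median of the higher windows was nearer to 4 hpf, while by pooled reads it was nearer to 2 hpf. Over the same CpGs, the level at 8 hpf was nearer to 4 hpf in 40 of 162 lower windows (24.7%, interval 18.7% to 31.9%) and in 15 of 68 higher windows (22.1%, interval 13.8% to 33.3%). At 24 hpf this was so in 51 of 248 lower windows (20.6%, interval 16.0% to 26.03%) and in 49 of 115 higher windows (42.6%, interval 34.0% to 51.7%). Paired over the CpGs read at both stages, the median difference of 24 minus 2 hpf was -3.69 points in these lower windows and 10.4 points in these higher windows. That of 24 minus 4 hpf was 25.7 points in the lower and -16.4 points in the higher windows. By these paired medians the higher windows lay nearer to 2 hpf at 24 hpf. No lower window and 1 higher window was at least 25 points from 2 hpf at both later stages. With 20 or more reads per CpG the median difference of 8 minus 2 hpf was -0.602 points in 72 lower windows and 7.31 points in 21 higher windows.

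By pooled reads, how often a change was kept also went with read number. At 8 hpf, the share of lower windows nearer to 4 hpf was 29.4% with 40 to 99 reads, 20.9% with 100 to under 200, 10.2% with 200 to under 400 and 7.85% (interval 5.45% to 11.2%) with 400 or more. For higher windows it was 36.5%, 27.4%, 19.01% and 9.68% (interval 4.51% to 19.5%) in the same order. At 24 hpf the share fell over these classes to 8.14% of 344 lower windows and 23.8% of 63 higher windows. CpG by CpG such a fall was not detectable. With 20 or more reads per CpG, 26.4% of 72 lower windows (interval 17.6% to 37.6%) were nearer to 4 hpf at 8 hpf. At 24 hpf it was 26.9% of 78 (18.3% to 37.7%). All lower windows read in that way, these included, gave 24.7% and 20.6%. For higher windows it was 4 of 21 at 8 hpf and 10 of 24 at 24 hpf. All higher windows gave 15 of 68 and 49 of 115. Only 162 of 389 lower windows could be followed at 8 hpf, against 72 of the 80 with 20 or more reads per CpG. Thinly covered windows were mostly left out, so the comparison cannot decide whether the share goes with read number.

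The windows named next kept at least 25 points by pooled reads at both later stages. They were the best covered of these, chosen after their values were seen, and were of both kinds. At chr2:54734001-54735000 the pooled level was 78.0% (2 hpf), 50% (4 hpf), 45.2% (8 hpf) and 32.9% (24 hpf), but the same-CpG difference of 4 minus 2 hpf was 2.91 points over 16 CpGs. At chr11:46263001-46264000 it was 68.1% (2 hpf), 40.8% (4 hpf), 41.6% (8 hpf) and 39.3% (24 hpf), with a same-CpG difference of -1.51 points over 18 CpGs. In both the pooled change was kept while the CpGs compared had differed by under 10 points. At chr22:25114001-25115000 the pooled level was 73.6% (2 hpf), 47.6% (4 hpf), 42.4% (8 hpf) and 46.7% (24 hpf), with a same-CpG difference of -15.4 points over 18 CpGs. At chr14:19174001-19175000 the pooled level was 63.4% (2 hpf), 88.6% (4 hpf), 88.6% (8 hpf) and 90.5% (24 hpf), with a same-CpG difference of 36.1 points over 19 CpGs. At chr19:42370001-42371000 it was 12.2% (2 hpf), 47.6% (4 hpf), 37.8% (8 hpf) and 45.6% (24 hpf), with 30.3 points over all 12 CpGs. At chr23:45408001-45409000 it was 57.2% (2 hpf), 82.9% (4 hpf), 93.3% (8 hpf) and 93.2% (24 hpf), with 25.2 points over 18 CpGs. In these 3 higher windows the CpGs compared differed by at least 25 points too.

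Within the window and beside it the pooled reads were also summed in steps of 200 bp. Over all 1743 lower windows, the 5 steps inside the window had levels between 60.6% and 70.1% at 2 hpf, between 29.1% and 39.3% at 4 hpf, between 61.8% and 69.5% at 8 hpf and between 62.7% and 67.4% at 24 hpf. At 2 kb to either side the level was 74.9% and 79.1% at 4 hpf, against 78.9% and 82.6% at 2 hpf. The lower windows thus lay below the level at 2 kb at both stages. In the steps 600 bp from the centre, just outside the window, the level was 58.2% and 59.9% at 2 hpf. At 4 hpf it was 43.4% and 46.5% there. At 2 hpf the windows called lower did not lie below their direct flanks, and at 4 hpf they did. Windows were chosen on the difference between these 2 libraries, while their flanks were not. Both contrasts follow in part from that choice and are a description only. Over the 630 higher windows, the 5 steps had levels between 32.4% and 45.6% at 2 hpf, between 57.9% and 74.3% at 4 hpf, between 27.2% and 49.7% at 8 hpf and between 25.8% and 56.9% at 24 hpf. At 24 hpf the central step was below its 2 hpf level and the other 4 steps were above theirs.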

How the data were processed

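Whole-genome bisulfite libraries of whole zebrafish embryos were examined, 1 each at 2, 4, 8 and 24 hpf. For every CpG of Zv9 (danRer7 in the submitters' processing notes) the authors deposited the fraction of reads that were methylated, with the coverage beside it. How reads were aligned and how duplicates were treated is not given in the sources used here. Methylated reads were taken as fraction times coverage. CpG counts were pooled in 1 kb windows (at least 6 covered CpGs and 40 reads in both libraries; level = methylated reads over all reads) and windows were called at a difference of 25 points, 4 minus 2 hpf. Total reads over the 24222160 nuclear CpGs were 693553384 (2 hpf), 506486388 (4 hpf), 194648540 (8 hpf) and 299121963 (24 hpf). Later stages needed 20 reads. Same-CpG differences needed 6 CpGs of at least 5 reads in both libraries. This reading, the minimum of 400 reads and the count without chromosome 4 were added after the data were seen. The members and lists were chosen with earlier results of these data known.

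Windows named are the 5 largest differences each way with an adjusted Fisher exact p under 0.05 and the 3 longest clusters each way, with exceptions marked in the text. Gene lists were not used, since a gene annotation of Zv9 was not used here. Functions were checked on simulated reads over chromosome 1. The tools were numba 0.67.0, pyarrow 21.0.0, scipy 1.17.1, numpy 2.4.6, matplotlib 3.10.9 and pandas 2.3.3 under Python 3.11.15.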

Additional observations from a re-analysis of the deposited data

How the results depend on the processing

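With a minimum of 100 reads in both libraries, the higher windows numbered 366, and the shares nearer to 4 hpf were 13.3% (8 hpf) and 12.8% (24 hpf) of lower and 20.9% and 32.0% of higher windows. With only CpGs of 5 reads in both, there were 379 higher windows, and the shares were 12.0% and 12.9% of lower and 21.2% and 31.5% of higher windows. With the mean of CpG fractions in place of pooled reads there were 871 lower windows, and the shares were 21.9% and 23.5% of lower and 55.1% and 47.9% of higher windows, so that at 8 hpf most higher windows were then nearer to 4 hpf. There each library was averaged over its own CpGs of 5 reads or more. Windows shifted by 500 bp gave 30.3% of higher windows at 8 hpf. At 30 points there were 753 lower and 262 higher windows, and 13.9% of lower windows were nearer to 4 hpf at 24 hpf. With 6 CpGs and 40 reads at all 4 stages there were 361 higher windows, and the shares of lower windows were 14.4% and 13.9%. With 400 reads in both there were 344 lower and 63 higher windows, with shares of 7.85% and 8.14% of lower and 9.68% and 23.8% of higher windows. With the same CpGs weighted alike there were 389 lower and 205 higher windows, with 24.7% and 20.6% of lower and 42.6% (24 hpf) of higher windows. The causes were not tested. Leaving out CpGs over 3 times the median coverage, thinning all libraries to the depth of 8 hpf and adding the Fisher exact test moved none of these 6 values beyond the stated limits. These limits are 1.5 times for a count and the Wilson interval for a share. The 6 values are the counts and the shares nearer to 4 hpf. CpG density and adjacency moved in some settings. The mean of CpG fractions gave a median of 25 CpGs in lower and 21 in higher windows, and thinning gave 17 and 15. Thinning left 2.94% of lower windows with an adjacent lower window. At 30 points the adjacent shares were 1.86% of lower and 0% of higher windows. With 6 CpGs and 40 reads at all 4 stages it was 0.554% of higher windows. Where windows were chosen on CpGs of even rank only, the median difference at the CpGs of odd rank was -20.7 points in 2681 lower windows and 7.88 points in 1465 higher windows, against -29.1 and 28.8 points at the CpGs used for the choice. The minimums of CpGs and reads were lower here than in the main call, so these counts are not comparable with it. Neighbouring CpGs share reads, so the CpGs of odd rank were not independent of the choice. No paired analysis was possible because each stage has 1 library. With 1 library per stage the spread between libraries is not known for any value.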
